A study of Mus musculus with 6 samples.

Results

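Voltage-gated sodium channel subunits were followed in hippocampal RNA of Tg2576 mice through every probe set of the chip that the platform annotation assigns to Scn1a, Scn2a (also written Scn2a1), Scn3a, Scn8a, Scn2b, Scn3b or Scn4b and to no other gene. This gave 20 probe sets of 7 genes among 45101 probe sets in all. Of the 20, 17 reached a mean of 100 in some group and were tested, and 3 stayed below that level in every group. Every mouse, controls included, was a male of the Tg2576 line on a background labelled C57BL/6 (C57BL/6J in the methods). The transgene of this line is a Swedish-mutant human APP695, driven in neurons by a prion protein promoter. The Tg-18mo-ACEI group was 18 months old and had received the brain-penetrating ACE inhibitor captopril in drinking water at 20 mg/kg per day for 6 months. The Tg-18mo group had the same age and drank water without captopril, and the Tg-12mo group was 12 months old and untreated, the age at which captopril was started. Each group had 2 Affymetrix MG430 2.0 chips, each hybridized with hippocampal RNA pooled from 4 mice, so every p-value reflects only how far the chips spread, which may be technical, and says nothing of single animals.

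Sodium channels open on depolarization and carry the inward current of the neuronal action potential. Each channel has a large pore-forming α subunit, which also holds the voltage sensors, and associated β subunits, small proteins with a single membrane span and an extracellular immunoglobulin domain that alter gating and act in cell adhesion. In the brain Scn1a, Scn2a, Scn3a and Scn8a encode the α subunits Nav1.1, Nav1.2, Nav1.3 and Nav1.6, and Scn2b, Scn3b and Scn4b encode β2, β3 and β4. Nav1.1 is prominent in parvalbumin interneurons, Nav1.2 in excitatory neurons and their unmyelinated axons, Nav1.6 at mature axon initial segments and nodes of Ranvier, and Nav1.3 mainly in the developing brain.

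Values are linear signal intensities, scaled by the authors to a target value of 600. Differences are on the log2 scale, so that 1 is a doubling, and come from limma fitted to all 6 chips, with p-values adjusted over 23262 probe sets (Benjamini-Hochberg). The threshold was an adjusted p under 0.05. Signals of different probe sets were not compared with each other, because each has its own response. Summed signals of marker lists were compared only between groups, and bright probe sets weigh most in them. On every chip the trimmed mean was 600. Log2 signals correlated at 0.931 to 0.954 between chips of the same group and 0.925 to 0.947 between chips of different groups. The highest signal was 23607 and 21934 in Tg-18mo-ACEI, 24057 and 25102 in Tg-18mo, and 39494 and 40190 in Tg-12mo. The untrimmed mean signal was 806 and 796 in Tg-18mo-ACEI, 805 and 817 in Tg-18mo, and 897 and 902 in Tg-12mo. The signal of the 3′ control probe set for 18S ribosomal RNA was 2214 and 1999.95 in Tg-18mo-ACEI, 10219 and 11144 in Tg-18mo, and 2125 and 2121 in Tg-12mo. The β-actin 3′/5′ ratio was 1.45 and 1.38 in Tg-18mo-ACEI, 1.98 and 1.88 in Tg-18mo, and 1.83 and 1.77 in Tg-12mo. The 18S signal set the Tg-18mo chips apart from both other groups, and the β-actin ratio set the Tg-18mo-ACEI chips apart from both other groups. The highest and mean signals set the Tg-12mo chips apart from the chips of 18 months. The part of these measures in the differences below was not tested. In RNA of whole tissue, a change in the number of cells of a type and a change in RNA per cell cannot be told apart.

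**Figure D1:**
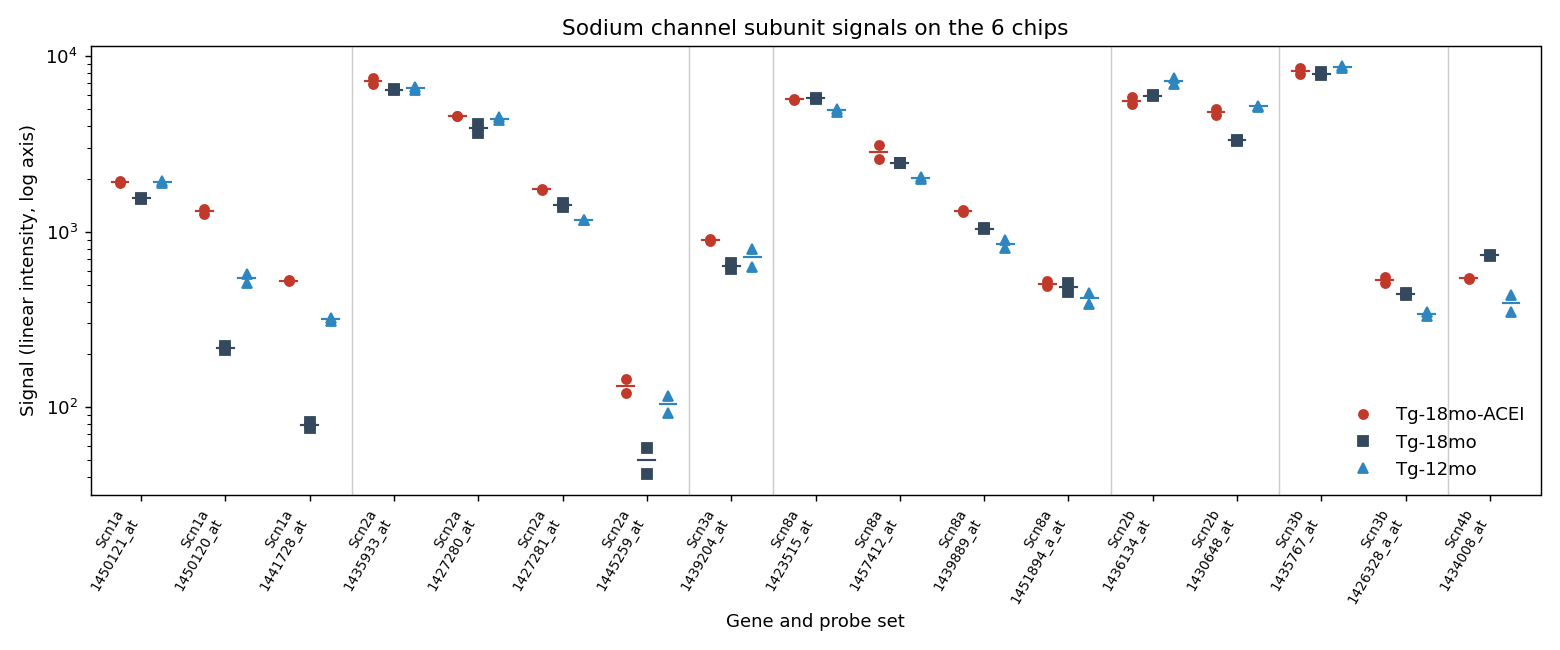
Signal of each tested sodium channel probe set on each chip (linear intensity on a log axis), with 2 chips a group as points and the group mean as a bar. The Tg-18mo points lie below both other groups for all 3 probe sets of Scn1a and above both for Scn4b, and heights are not comparable between probe sets.

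With captopril, most α subunit probe sets were higher than in untreated mice of the same age, with Scn8a divided. In Tg-18mo-ACEI against Tg-18mo, 10 of the 17 tested sodium channel probe sets were higher, 1 was lower and 6 did not pass, whereas 15.9% of all probe sets tested passed as higher and 17.7% as lower. Chips did not overlap, with the Tg-18mo-ACEI chips above, for 12 of the 17 and, with them below, for 2, beside 31.1% and 40.3% of all probe sets tested. The median log2 difference of the 17 was 0.26, and that of all probe sets tested was -0.04. By subunit class, 9 of 12 α subunit probe sets were higher and none was lower, and of the 5 β subunit probe sets 1 was higher and 1 was lower. Counting 1 leading probe set per gene, the plain probe set with the highest mean signal, 3 of 7 genes were higher (Scn1a, Scn2a and Scn3a) and 1 was lower (Scn4b), beside 12.6% higher and 21.7% lower over the brightest probe sets of all 12325 genes tested. Scn1a 1441728_at and Scn2a 1445259_at, both with a mean under 100 in Tg-18mo, passed the signal filter only through the other groups. This favours a difference from Tg-18mo, so their calls in comparisons that include Tg-18mo are no support. The counts and medians here and below include them.

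With age (Tg-18mo against Tg-12mo, both untreated), the family divided. In Tg-18mo against Tg-12mo, 6 of 17 probe sets were higher and 7 were lower, beside 25.9% higher and 21.5% lower over all probe sets tested, and the median log2 difference was -0.12, against 0.05 over all. Scn1a and Scn2b were lower and Scn8a and Scn4b were higher, on their leading probe sets. In Tg-18mo-ACEI against Tg-12mo, 9 were higher and 1 was lower, beside 22.3% and 17.7% over all probe sets tested, with a median of 0.34 against 0.05. Chips did not overlap for 7 upward and 8 downward in Tg-18mo against Tg-12mo, beside 40.9% and 33.6% of all probe sets tested, and for 13 upward and 3 downward in Tg-18mo-ACEI against Tg-12mo, beside 39.6% and 31.4%. At the thresholds of the study, a 2-fold difference with p no higher than 0.01 before adjustment (limma's p was used), 3 members were higher in Tg-18mo-ACEI against Tg-18mo (3.03% of all probe sets tested higher, 1.06% lower), 3 were lower in Tg-18mo against Tg-12mo (2.57% higher, 1.78% lower) and 1 was higher in Tg-18mo-ACEI against Tg-12mo (2.05% higher, 1.24% lower). The 3 were Scn1a 1450120_at, Scn1a 1441728_at and Scn2a 1445259_at in both cases, and the 1 was Scn1a 1450120_at. Among the 3, the calls on Scn1a 1441728_at and Scn2a 1445259_at are no support, because of the filter. The 3 comparisons share chips with each other, so their values stand side by side below and their overlap is not a result.

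**Figure D2:**
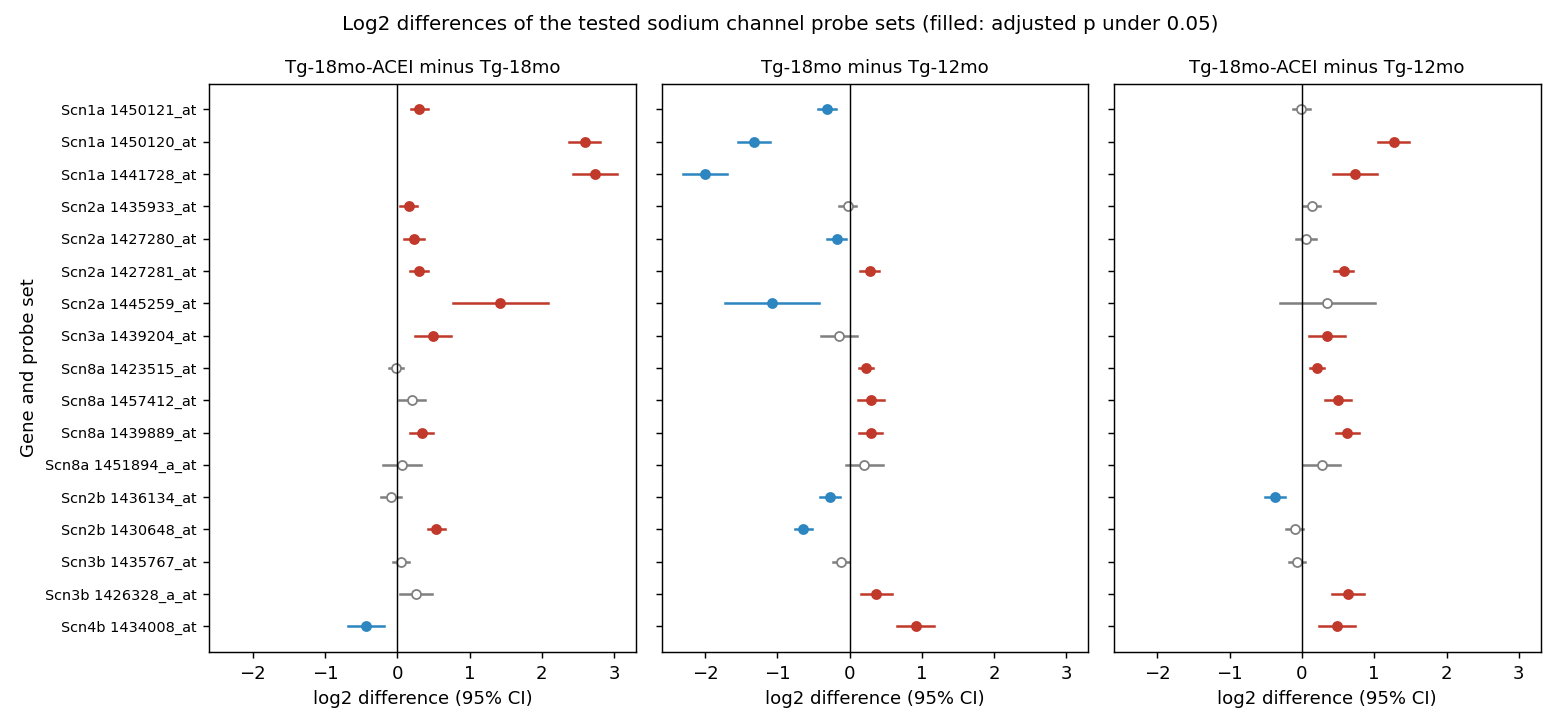
Log2 difference with its 95% confidence interval for the 17 tested probe sets in the 3 comparisons (first group minus second). Filled red points passed as higher, filled blue points as lower, and open grey points did not pass. The intervals of Scn1a 1450120_at and 1441728_at in Tg-18mo-ACEI minus Tg-18mo run from 2.38 to 2.81 and from 2.44 to 3.04.

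Scn1a, the gene of the α subunit Nav1.1, had the members' largest log2 differences with captopril and with age, but on 2 of its 3 probe sets and not on the leading one. The leading probe set 1450121_at had signals of 1935 and 1882 in Tg-18mo-ACEI, 1535 and 1556 in Tg-18mo, and 1890 and 1946 in Tg-12mo. Both Tg-18mo chips lay below all 4 other chips, and the Tg-18mo-ACEI and Tg-12mo chips overlapped. The log2 difference was 0.30 (SE 0.052, limma adjusted p = 0.0030) in Tg-18mo-ACEI against Tg-18mo, -0.31 (adjusted p = 0.0015) in Tg-18mo against Tg-12mo and -0.01 (adjusted p = 0.93) in Tg-18mo-ACEI against Tg-12mo, where the 95% confidence interval ran from -0.13 to 0.11.

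The second Scn1a probe set, 1450120_at, was designed on the same transcript sequence as the leading probe set and had larger differences. Its signals were 1266 and 1354 in Tg-18mo-ACEI, 212 and 223 in Tg-18mo, and 513 and 575 in Tg-12mo. The 3 groups did not overlap, with Tg-18mo lowest and Tg-18mo-ACEI highest. The mean was 6.02-fold that of Tg-18mo in Tg-18mo-ACEI, a log2 difference of 2.59 (SE 0.094, limma adjusted p = 9.5e-07), which ranked 40 from the top of the 23262 probe sets tested. It was -1.32 (adjusted p = 2.4e-05) in Tg-18mo against Tg-12mo and 1.27 (adjusted p = 3.6e-05) in Tg-18mo-ACEI against Tg-12mo.

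The third Scn1a probe set, 1441728_at, had the same order of groups. Signals were 523 and 529.8 in Tg-18mo-ACEI, 82.3 and 75.9 in Tg-18mo, and 309 and 324 in Tg-12mo. Again no chip of 1 group reached the range of another. Its log2 difference was 2.74 (SE 0.131, limma adjusted p = 3.8e-06) in Tg-18mo-ACEI against Tg-18mo, rank 33 from the top, then -2.0 (adjusted p = 1.7e-05) in Tg-18mo against Tg-12mo and 0.73 (adjusted p = 0.0027) in Tg-18mo-ACEI against Tg-12mo. The platform annotation gives this probe set to Scn1a, while a description in the supplementary material of the study calls its source sequence similar to Scn8a, and the sequence itself was not analysed here. Scn1a thus passed as higher on 3 of 3 probe sets with captopril, but by 0.30 on its leading probe set and by 2.59 and 2.74 on the others. However, 1441728_at, with the 2.74, passed the filter only through groups other than Tg-18mo. Its calls in comparisons that include Tg-18mo are therefore no support. A difference between probe sets of the same gene was not tested. Where on the transcript each probe set lies was not analysed here.

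**Figure D3:**
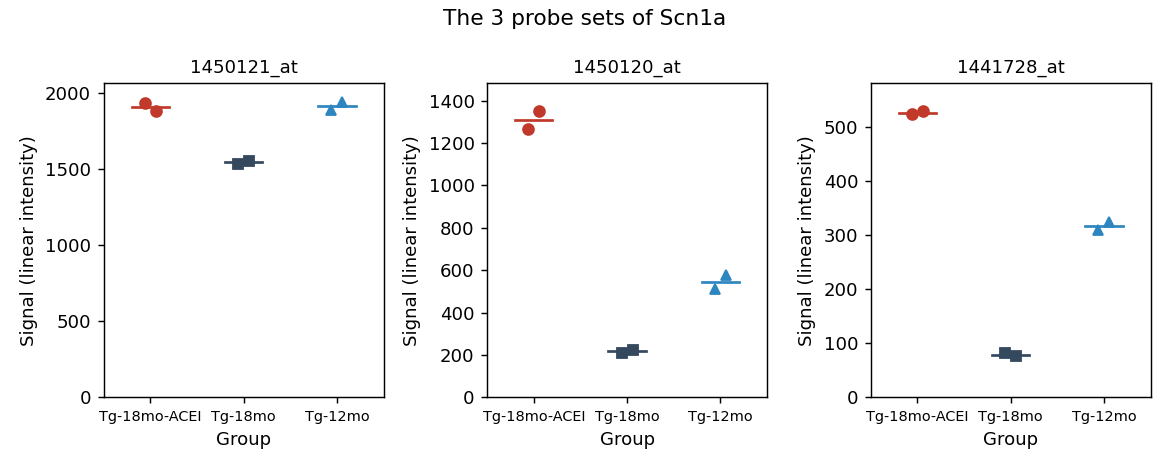
Signal of the 3 Scn1a probe sets on each chip (linear intensity, each axis from 0), with points for the 2 chips of a group and a bar for their mean. On 1450121_at the Tg-18mo-ACEI and Tg-12mo chips lie together between 1882 and 1946, whereas on 1450120_at and 1441728_at the Tg-18mo-ACEI chips lie above the Tg-12mo chips.

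Interneurons are the cells in which Nav1.1 is best known, and most markers of these cells were lower with captopril. Of 12 interneuron markers, 8 were lower and 1 was higher in Tg-18mo-ACEI against Tg-18mo, beside 21.7% lower and 12.6% higher over all genes tested. The summed signal of the list was 42137 and 41790 in Tg-18mo-ACEI, 47349 and 48574 in Tg-18mo, and 49925 and 49628 in Tg-12mo. The brightest probe sets, those of Gad1, Cck and Sst, weigh most in this sum. With age, 5 of the 12 markers were higher and 4 were lower, with a median of 0.17, beside 28% and 21% over all genes tested. Dlx1, a transcription factor of interneurons, had a log2 difference of -0.65 (limma adjusted p = 0.0011) in Tg-18mo-ACEI against Tg-18mo. Npy, a neuropeptide, had -0.61 (adjusted p = 0.00010) in the same comparison. Pvalb, the parvalbumin gene, was also lower with captopril, at -0.25 (adjusted p = 0.024). The marker that was higher with captopril was Kcnc1, a potassium channel gene, at 0.31 (adjusted p = 0.0058). All 12 markers had signals of at least 100 on every chip. Of 12 general neuron markers, 6 were lower and none was higher in Tg-18mo-ACEI against Tg-18mo. Among the lower was Nefh, a neurofilament protein, at -0.31 (adjusted p = 0.0019). Of 13 markers of hippocampal excitatory neurons, all at 100 or more on every chip, 3 were higher and 3 were lower in the same comparison. Prox1, a transcription factor of dentate granule cells, was higher by 1.57 (adjusted p = 0.00029), Zbtb20, a transcription factor of hippocampal pyramidal and granule cells, by 0.53 (adjusted p = 0.00019) and Neurod6, a pyramidal neuron transcription factor, by 0.45 (adjusted p = 0.0029). The lower markers were Spink8 at -0.47 (adjusted p = 0.00090), Dsp at -0.32 (adjusted p = 0.022) and Slc17a7, a vesicular glutamate transporter, at -0.22 (adjusted p = 0.0092).

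Markers of neighbouring brain regions differed between the same chips. Of 10 choroid plexus markers, 9 were lower in Tg-18mo-ACEI against Tg-18mo, with a median log2 difference of -2.46, beside 21.7% lower over all genes tested. Of these, Slc4a5, Aqp1 and Otx2, with means of 52.8, 75.0 and 63.1 in Tg-18mo-ACEI, passed the filter only through the other groups. Their calls are no support, and the count and median include them. The summed signals were 22318 and 20336 in Tg-18mo-ACEI, 26974 and 29423 in Tg-18mo, and 44846 and 44649 in Tg-12mo. Most of that sum is Ttr, the transthyretin gene and the only marker that did not pass with captopril (0.05, limma adjusted p = 0.59). With age Ttr was lower at -0.96 (adjusted p = 2.5e-05), while 4 of the other markers were higher and the median of the 10 was 0.10. Over all genes tested, 28% were higher and 21% were lower with age. Of 9 tested cerebellar markers, 6 were higher and 1 was lower in Tg-18mo-ACEI against Tg-18mo, beside 12.6% and 21.7% over all genes tested. However, Gabra6, Pcp2, Cbln3 and Zic2 passed the filter only through Tg-18mo-ACEI, so their tests and this count are no support. Of the others, Car8 was higher by 1.66 (adjusted p = 0.00014), Cbln1 by 0.57 (adjusted p = 0.0013) and Neurod1 by 0.48 (adjusted p = 0.0027), and Zic1 was lower at -0.88 (adjusted p = 9.6e-06). Gabra6, a granule cell GABA-A receptor subunit, had signals of 158 and 192 in Tg-18mo-ACEI, 21.6 and 7.93 in Tg-18mo, and 1.67 and 3.31 in Tg-12mo. Pcp2, a Purkinje cell protein, had 275 and 287 in Tg-18mo-ACEI, 39.0 and 38.3 in Tg-18mo, and 45.6 and 11.2 in Tg-12mo. The summed signal of all 11 cerebellar markers on the chip was 12141 and 12695 in Tg-18mo-ACEI, 13192 and 13183 in Tg-18mo, and 13586 and 13572 in Tg-12mo, a sum carried by the bright Calb1 and Zic1 probe sets, neither of which was higher. The part of these cells in the sodium channel differences was not tested.

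Scn2a, the gene of Nav1.2, was higher with captopril on all 4 of its tested probe sets, by 0.16 to 0.30 on 3 of them. The remaining one, 1445259_at, passed the filter only through groups other than Tg-18mo, so its call is no support. The leading probe set 1435933_at had signals of 7499 and 6940 in Tg-18mo-ACEI, 6472 and 6432 in Tg-18mo, and 6693 and 6423 in Tg-12mo. The Tg-18mo-ACEI chips were above all others, and the Tg-18mo and Tg-12mo chips overlapped. Its log2 difference of 0.16 (SE 0.052, limma adjusted p = 0.043) passed narrowly, and it passed in 5 of 14 alternative limma fits, with adjusted p between 0.011 and 0.22. Of the single chips, only leaving out Tg-18mo-ACEI replicate 2 kept it past the threshold, and without Tg-18mo-ACEI replicate 1 it was 0.11 (adjusted p = 0.22). Neither Tg-18mo against Tg-12mo (-0.02, adjusted p = 0.74) nor Tg-18mo-ACEI against Tg-12mo (0.14, adjusted p = 0.064) passed, although the value for Tg-18mo-ACEI against Tg-12mo was 0.19 (adjusted p = 0.041) without Tg-18mo-ACEI replicate 2 and 0.32 (adjusted p = 0.0013) after quantile normalization.

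A pair of Scn2a probe sets designed on the same transcript sequence differed in direction with age. On 1427280_at the signals were 4576 and 4554 in Tg-18mo-ACEI, 4099 and 3667 in Tg-18mo, and 4484 and 4305 in Tg-12mo. On 1427281_at they were 1758 and 1735 in Tg-18mo-ACEI, 1451 and 1387 in Tg-18mo, and 1169 and 1171 in Tg-12mo. The Tg-18mo chips were thus lowest of the 3 groups on the first and intermediate on the second. In Tg-18mo-ACEI against Tg-18mo the log2 difference was 0.24 (limma adjusted p = 0.017) on 1427280_at and 0.30 (adjusted p = 0.0044) on 1427281_at. With age it was -0.18 (adjusted p = 0.036) on 1427280_at, a call kept in 5 of 14 alternative limma fits, and 0.28 (adjusted p = 0.0038) on 1427281_at, kept in all 14. In Tg-18mo-ACEI against Tg-12mo, 1427280_at did not pass (0.06, adjusted p = 0.49), whereas 1427281_at was higher by 0.58 (adjusted p = 0.00011). The captopril call on 1427280_at did not pass without Tg-18mo-ACEI replicate 1 (adjusted p = 0.073), Tg-18mo-ACEI replicate 2 (0.074) or Tg-18mo replicate 2 (0.12), and its age value no longer passed, at -0.10 (0.24) when Tg-18mo replicate 2 was left out and at -0.15 (0.15) when Tg-12mo replicate 1 was.

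The dimmest Scn2a probe set that was tested, 1445259_at, had signals of 144 and 121 in Tg-18mo-ACEI, 58.6 and 41.4 in Tg-18mo, and 93.0 and 116 in Tg-12mo. Both Tg-18mo chips were below the other 4, and every value was near the filter level of 100 or under it. The log2 difference was 1.42 (SE 0.29, limma adjusted p = 0.0063) in Tg-18mo-ACEI against Tg-18mo and -1.07 (adjusted p = 0.015) in Tg-18mo against Tg-12mo. The first did not pass without Tg-18mo-ACEI replicate 1 (adjusted p = 0.053), and the second did not pass without Tg-12mo replicate 2 (0.062) or Tg-18mo replicate 2 (0.086). In Tg-18mo-ACEI against Tg-12mo it did not pass (0.35, adjusted p = 0.36).

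Scn3a, the gene of Nav1.3, had 1 tested probe set, 1439204_at. Signals were 888 and 910 in Tg-18mo-ACEI, 660 and 616 in Tg-18mo, and 632 and 793 in Tg-12mo. Both Tg-18mo-ACEI chips were above all others, and the 2 Tg-12mo chips enclosed a Tg-18mo chip. It was higher by 0.50 (SE 0.11, limma adjusted p = 0.0090) in Tg-18mo-ACEI against Tg-18mo and by 0.34 (adjusted p = 0.034) against Tg-12mo. The first did not pass once Tg-18mo replicate 2 (adjusted p = 0.061) or Tg-18mo-ACEI replicate 2 (0.059) was left out, and the second passed in 8 of 14 alternative limma fits, not without Tg-18mo-ACEI replicate 1 (0.10), Tg-18mo-ACEI replicate 2 (0.14) or Tg-12mo replicate 1 (0.18 on the log2 scale, adjusted p = 0.14). Tg-18mo against Tg-12mo gave -0.15 (adjusted p = 0.28), and -0.31 (0.023) without Tg-12mo replicate 1. Its other probe set, 1421705_at, ranged from 3.66 to 30.9 and was not tested.

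Scn8a, the gene of Nav1.6, was higher with age and did not pass with captopril on its leading probe set. The signals of 1423515_at were 5623 and 5728 in Tg-18mo-ACEI, 5722 and 5760.1 in Tg-18mo, and 4814 and 5002 in Tg-12mo. The 4 chips of 18 months overlapped and lay above both chips of 12 months. The log2 difference was -0.02 (limma adjusted p = 0.80, 95% confidence interval -0.12 to 0.09) in Tg-18mo-ACEI against Tg-18mo, 0.23 (adjusted p = 0.0035) in Tg-18mo against Tg-12mo and 0.21 (adjusted p = 0.0061) in Tg-18mo-ACEI against Tg-12mo.

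A pair of further Scn8a probe sets was also higher at 18 months. On 1457412_at the signals were 2611 and 3104 in Tg-18mo-ACEI, 2476.2 and 2475.7 in Tg-18mo, and 2048 and 1984 in Tg-12mo, and on 1439889_at they were 1329 and 1296 in Tg-18mo-ACEI, 1047 and 1030.3 in Tg-18mo, and 806 and 892 in Tg-12mo. On both, the groups did not overlap and stood in the order Tg-18mo-ACEI, Tg-18mo, Tg-12mo from high to low. In Tg-18mo-ACEI against Tg-18mo, 1439889_at was higher by 0.34 (limma adjusted p = 0.0071), and 1457412_at had 0.20 (adjusted p = 0.078). Against Tg-12mo, Tg-18mo was higher by 0.29 (adjusted p = 0.0089) on 1439889_at and 0.30 (adjusted p = 0.014) on 1457412_at, and Tg-18mo-ACEI was higher by 0.63 (adjusted p = 0.00023) and 0.50 (adjusted p = 0.0013) on these probe sets. Without Tg-18mo-ACEI replicate 1, 1457412_at passed with captopril (0.33, adjusted p = 0.011). Its age call did not pass without Tg-18mo replicate 1 or 2 or Tg-12mo replicate 2 (adjusted p = 0.057 to 0.059), nor did that of 1439889_at without Tg-18mo replicate 1 (0.051).

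The remaining Scn8a probe sets passed in none of the 3 comparisons. On 1451894_a_at, whose suffix marks a probe set shared by several transcripts of the gene, signals lay between 386 and 521 and the log2 differences were 0.07 in Tg-18mo-ACEI against Tg-18mo, 0.21 in Tg-18mo against Tg-12mo and 0.27 in Tg-18mo-ACEI against Tg-12mo (limma adjusted p = 0.68, 0.17 and 0.088). The last of these passed without Tg-12mo replicate 2 (0.38, adjusted p = 0.045). The other, 1442208_at, ranged from 3.32 to 12.6 and was not tested. Of the 4 α subunit genes, Scn8a was therefore the only gene whose leading probe set did not pass as higher with captopril.

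Among the β subunits, Scn2b was lower at 18 months. Its protein β2 is linked to the α subunit by a disulfide bond and supports channel density at the surface. The leading probe set 1436134_at had signals of 5843 and 5329 in Tg-18mo-ACEI, 5891 and 5993 in Tg-18mo, and 6908 and 7506 in Tg-12mo. All 4 chips of 18 months were below both chips of 12 months. The log2 difference was -0.09 (limma adjusted p = 0.28) in Tg-18mo-ACEI against Tg-18mo, -0.28 (adjusted p = 0.0059) in Tg-18mo against Tg-12mo and -0.37 (adjusted p = 0.0018) in Tg-18mo-ACEI against Tg-12mo. After quantile normalization the second of these was -0.13 and did not pass (adjusted p = 0.093).

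The other tested Scn2b probe set, 1430648_at, had its Tg-18mo chips lowest, as Scn1a 1450121_at did. Signals were 5019 and 4638 in Tg-18mo-ACEI, 3343 and 3291 in Tg-18mo, and 5224 and 5118 in Tg-12mo. Every Tg-18mo chip was below the other 4. It was higher by 0.54 (SE 0.052, limma adjusted p = 0.00015) in Tg-18mo-ACEI against Tg-18mo and lower at -0.64 (adjusted p = 4.0e-05) in Tg-18mo against Tg-12mo, and it did not pass in Tg-18mo-ACEI against Tg-12mo (-0.10, adjusted p = 0.16). Both tested Scn2b probe sets were thus lower in Tg-18mo than in Tg-12mo, but only this one was higher with captopril. The last, 1457144_at, lay between 39.5 and 74.5 and was not tested.

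Scn3b, the gene of β3, did not pass with captopril. The leading probe set 1435767_at had signals of 8521 and 7962 in Tg-18mo-ACEI, 7799 and 8101 in Tg-18mo, and 8541 and 8748 in Tg-12mo, with log2 differences of 0.05 (limma adjusted p = 0.46) in Tg-18mo-ACEI against Tg-18mo, -0.12 (adjusted p = 0.078) in Tg-18mo against Tg-12mo and -0.07 (adjusted p = 0.30) in Tg-18mo-ACEI against Tg-12mo. The first of these pairs of groups overlapped, and the last turned to 0.20 and passed (adjusted p = 0.0054) after quantile normalization. The dimmer 1426328_a_at had 508 and 552 in Tg-18mo-ACEI, 448 and 435 in Tg-18mo, and 333 and 349 in Tg-12mo, with no overlap between groups. It was higher by 0.37 (adjusted p = 0.013) in Tg-18mo against Tg-12mo and by 0.63 (adjusted p = 0.0012) in Tg-18mo-ACEI against Tg-12mo, and had 0.26 (adjusted p = 0.066) in Tg-18mo-ACEI against Tg-18mo. The first did not pass without Tg-18mo replicate 1 (adjusted p = 0.072) or replicate 2 (0.0504).

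Scn4b was the member with a lower call with captopril. Its protein β4 is abundant in the striatum and in Purkinje cells and is known for its part in resurgent sodium current. The only probe set, 1434008_at, had signals of 541 and 546 in Tg-18mo-ACEI, 729 and 737 in Tg-18mo, and 350.2 and 433 in Tg-12mo. The groups did not overlap, with Tg-18mo highest and Tg-12mo lowest. The log2 difference was -0.43 (SE 0.11, limma adjusted p = 0.017) in Tg-18mo-ACEI against Tg-18mo, 0.91 (adjusted p = 0.00026) in Tg-18mo against Tg-12mo and 0.48 (adjusted p = 0.0086) in Tg-18mo-ACEI against Tg-12mo. The first did not pass when any of the 4 chips of these groups was left out (adjusted p = 0.070 to 0.086), with a log2 difference of -0.45 to -0.40 over all alternative fits.

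The striatal marker Penk passed in the same direction as Scn4b in all 3 comparisons, and the other 7 markers did not. The summed signal over the 8 genes was 5931 and 5896 in Tg-18mo-ACEI, 7265 and 7767 in Tg-18mo, and 5875 and 5610 in Tg-12mo. Of the 8, 3 were lower and 1 was higher in Tg-18mo-ACEI against Tg-18mo, beside 21.7% and 12.6% over all genes tested. In Tg-18mo against Tg-12mo, 3 were higher and none was lower, beside 28% and 21%. Drd2, with a mean under 100 in Tg-12mo, passed the filter only through the other groups. Its age call is no support, and the count includes it. Drd2, the D2 dopamine receptor of the indirect pathway, had 127 and 91.5 in Tg-18mo-ACEI, 299 and 376 in Tg-18mo, and 97.8 and 82.6 in Tg-12mo. Penk, a precursor of enkephalins in the same cells, had a log2 difference of -0.68 (limma adjusted p = 0.00014) in Tg-18mo-ACEI against Tg-18mo and 1.06 (adjusted p = 1.4e-05) in Tg-18mo against Tg-12mo. Drd1, the D1 dopamine receptor of the direct pathway, lay between 363 and 418 on all 6 chips, and Pde10a, a striatal phosphodiesterase, was higher by 0.54 (adjusted p = 0.0043) in Tg-18mo-ACEI against Tg-18mo. Ppp1r1b, a dopamine-regulated phosphatase inhibitor, was lower at -1.12 (adjusted p = 0.00030) in Tg-18mo-ACEI against Tg-18mo, higher by 0.48 (adjusted p = 0.012) in Tg-18mo against Tg-12mo, and lower at -0.65 (adjusted p = 0.0035) in Tg-18mo-ACEI against Tg-12mo, where Scn4b was higher. Rgs9, Tac1 and Rarb passed in none of the 3 comparisons. Summed signals were also highest in Tg-18mo for 8 thalamic markers, with 4412 and 4363 in Tg-18mo-ACEI, 5334 and 5439 in Tg-18mo, and 4182 and 4187 in Tg-12mo. For 9 vascular markers they were 7552 and 7669 in Tg-18mo-ACEI, 9342 and 10093 in Tg-18mo, and 5894 and 6484 in Tg-12mo, with Rgs5 the brightest probe set. With age, 4 thalamic markers were higher and 1 was lower, and 5 vascular markers were higher and none was lower. However, thalamic Lef1 and vascular Pecam1 had means under 100 in Tg-12mo, and thalamic Tcf7l2 a mean under 100 in Tg-18mo. These genes passed the filter only through the other groups, so their age tests and these counts are no support. Over all genes tested, 28% were higher and 21% were lower. The part of these tissues in the Scn4b values was not tested.

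**Figure D4:**
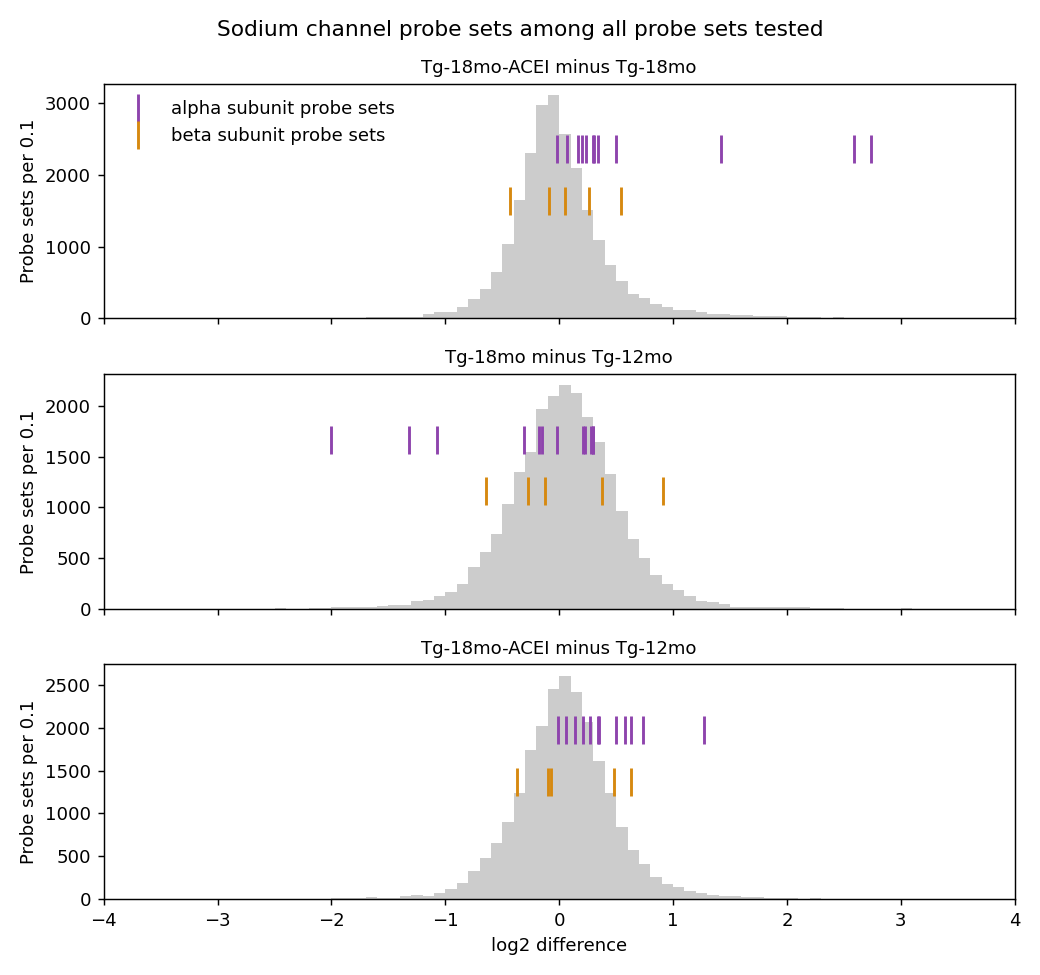
Number of probe sets per 0.1 of log2 difference (grey bars) over all 23262 tested in each comparison, shown from -4 to 4, with ticks at the α subunit (purple) and β subunit (orange) probe sets at arbitrary heights. In Tg-18mo-ACEI minus Tg-18mo the α subunit ticks lie between -0.02 and 2.74, while the median of all probe sets was -0.04.

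Scn2b and Scn4b lie next to each other on mouse chromosome 9, with no gene starting between them in the RefSeq annotation, and Scn3a, Scn2a and Scn1a lie in this order on chromosome 2, with other genes between. RefSeq promoter windows on GRCm38.p6 were found for 5 of the 7 genes, all but Scn3a and Scn3b. The 250 bases before the annotated start are shown for Scn1a, which had the largest differences, and for the neighbours Scn2b and Scn4b, whose leading probe sets moved in opposite directions with age. All read 5′ to 3′ on the strand of the gene, with each CG dinucleotide in capitals. They lie at chr2:66440838-66441087 (minus strand), chr9:45117626-45117875 (plus strand) and chr9:45138374-45138623 (plus strand).
Scn1a: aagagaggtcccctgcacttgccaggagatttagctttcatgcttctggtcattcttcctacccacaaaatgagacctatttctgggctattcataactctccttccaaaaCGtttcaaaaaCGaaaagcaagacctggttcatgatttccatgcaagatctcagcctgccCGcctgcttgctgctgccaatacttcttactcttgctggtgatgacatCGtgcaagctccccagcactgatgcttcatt
Scn2b: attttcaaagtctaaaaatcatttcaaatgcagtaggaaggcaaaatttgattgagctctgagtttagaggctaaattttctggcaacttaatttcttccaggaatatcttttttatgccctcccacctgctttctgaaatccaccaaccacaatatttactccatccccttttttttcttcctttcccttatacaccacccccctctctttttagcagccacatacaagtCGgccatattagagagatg
Scn4b: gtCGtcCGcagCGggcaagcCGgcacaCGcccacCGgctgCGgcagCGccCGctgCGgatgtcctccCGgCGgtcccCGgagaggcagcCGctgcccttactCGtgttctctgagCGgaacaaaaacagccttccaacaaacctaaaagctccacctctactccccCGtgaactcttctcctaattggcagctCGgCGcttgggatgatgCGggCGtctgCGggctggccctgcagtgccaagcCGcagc

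The windows of the neighbours differed in base composition. Scn4b had 23 CG dinucleotides and a GC content of 66%, Scn2b had 1 and 38.4%, and Scn1a had 4 and 46.8%. Over 32817 such windows the median was 6 CG dinucleotides and 52.4% GC, and 13.3% of windows had at least as many CG dinucleotides as Scn4b, 92.1% as many as Scn2b and 62.2% as many as Scn1a. The windows of the other genes, not shown, had 2 and 9 CG dinucleotides for Scn2a and 30 and 9 for Scn8a. These are descriptions of the reference sequence, and no binding or methylation was measured. A link between base composition and the age differences was not tested.

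Genes that act on sodium channels were described with 1 probe set per gene, the brightest. Of 4 other α subunit genes examined, only Scn7a, which encodes the sodium-sensing channel Nax, reached the filter. Its probe set 1436043_at had signals of 136 and 153 in Tg-18mo-ACEI, 66.3 and 79.8 in Tg-18mo, and 166 and 150.1 in Tg-12mo. As for the leading probe set of Scn1a, the Tg-18mo chips were lowest and the other groups overlapped. It was higher by 0.99 (limma adjusted p = 0.0086) in Tg-18mo-ACEI against Tg-18mo and lower at -1.12 (adjusted p = 0.0030) in Tg-18mo against Tg-12mo, and had -0.13 (adjusted p = 0.67) in Tg-18mo-ACEI against Tg-12mo. With a mean of 73.0 in Tg-18mo, it passed the filter only through the other groups, so its calls are no support. The other 3, Scn9a, Scn10a and Scn11a, stayed below the filter.

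Fibroblast growth factor homologous factors bind the cytoplasmic tail of α subunits and set inactivation. Of the 4, 1 was higher and none was lower in Tg-18mo-ACEI against Tg-18mo, beside 12.6% and 21.7% over all genes tested. The higher gene was Fgf13 at 0.16 (limma adjusted p = 0.018). With age, 3 were lower and 1 was higher, beside 21% lower and 28% higher over all genes tested. Fgf12 was lower at -0.62 (adjusted p = 7.4e-05) and Fgf11 higher by 0.52 (adjusted p = 0.048). In Tg-18mo-ACEI against Tg-12mo, 1 was higher and 2 were lower, beside 20.1% and 20.6% over all genes tested.

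Sodium channels are anchored at the axon initial segment by ankyrin G on a spectrin scaffold, and casein kinase 2 phosphorylates the ankyrin-binding motif of the channel. Of 8 tested genes of this group, 1 was higher and 2 were lower in Tg-18mo-ACEI against Tg-18mo, beside 12.6% and 21.7% over all genes tested. The median was 0.04, beside -0.08 over all genes. The higher gene was Csnk2a1, a catalytic subunit of casein kinase 2, with a mean signal of 3762 in Tg-18mo-ACEI, 870 in Tg-18mo and 2290.3 in Tg-12mo. Its log2 difference was 2.11 (limma adjusted p = 3.0e-07) in Tg-18mo-ACEI against Tg-18mo, -1.40 (adjusted p = 2.4e-06) in Tg-18mo against Tg-12mo and 0.72 (adjusted p = 3.9e-05) in Tg-18mo-ACEI against Tg-12mo. Nfasc, the cell adhesion molecule neurofascin, was lower at -0.31 (adjusted p = 0.018) and Sptbn4, βIV spectrin, at -0.21 (adjusted p = 0.028) in Tg-18mo-ACEI against Tg-18mo. With age, 3 genes of the group were higher and 3 were lower (28% and 21% over all genes tested). In Tg-18mo-ACEI against Tg-12mo, 5 were higher and 2 were lower (20.1% and 20.6%). Ank3, which encodes ankyrin G itself, had 0.03 (adjusted p = 0.59) in Tg-18mo-ACEI against Tg-18mo and was lower at -0.31 (adjusted p = 0.00065) in Tg-18mo against Tg-12mo.

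β subunits are cut by the same secretases that cut the amyloid precursor protein, and Nedd4-type ligases remove α subunits from the membrane. Of 7 genes of turnover and processing, 2 were higher and 2 were lower in Tg-18mo-ACEI against Tg-18mo, beside 12.6% and 21.7% over all genes tested. Bace1, the β-secretase that cleaves β2, was higher by 0.31 (limma adjusted p = 0.0015) in Tg-18mo-ACEI against Tg-18mo and lower at -0.57 (adjusted p = 4.5e-05) in Tg-18mo against Tg-12mo. The γ-secretase components Ncstn and Psen2 were lower at -0.60 (adjusted p = 0.042) and -0.38 (adjusted p = 0.014) in Tg-18mo-ACEI against Tg-18mo. With age, 3 of the 7 were higher and 2 were lower (28% and 21% over all genes tested), and in Tg-18mo-ACEI against Tg-12mo, 1 was higher and 2 were lower (20.1% and 20.6%). Bace2, among these 2, had means of 56.5 in Tg-18mo-ACEI, 86.0 in Tg-18mo and 109.55 in Tg-12mo. It passed the filter only through Tg-12mo, so its call is no support.

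RNA-binding proteins and a repressor are known to control sodium channel transcripts. Of 6 such genes, 2 were higher and 1 was lower in Tg-18mo-ACEI against Tg-18mo, beside 12.6% and 21.7% over all genes tested. Rest, the repressor that silences neuronal genes such as Scn2a in other cells, was higher by 0.89 (limma adjusted p = 0.018), with mean signals of 251 in Tg-18mo-ACEI, 137 in Tg-18mo and 201 in Tg-12mo. Nova2, a neuronal splicing factor, was lower at -0.67 (adjusted p = 0.00030). In Tg-18mo against Tg-12mo, 1 was higher and 3 were lower (28% and 21% over all genes tested). In Tg-18mo-ACEI against Tg-12mo none was higher and 3 were lower (20.1% and 20.6%). Of 7 genes of sodium leak and sodium exchange, 4 were higher and 1 was lower in Tg-18mo-ACEI against Tg-18mo (12.6% and 21.7% over all genes tested). Slc8a1, the sodium-calcium exchanger, was higher by 1.23 (adjusted p = 3.0e-06), and Nalcn, the sodium leak channel, by 0.24 (adjusted p = 0.0056). Slc8a2 was higher by 0.73 (adjusted p = 0.049), and the lower gene was Atp1b2 at -0.44 (adjusted p = 0.00057). With age, 1 of these 7 was higher and 4 were lower (28% and 21% over all genes tested). In Tg-18mo-ACEI against Tg-12mo, 3 were higher and 2 were lower (20.1% and 20.6%).

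The pattern of Scn1a 1441728_at over the 6 chips, chosen because it had the largest difference among the probe sets of the gene, was closest to those of Zfp664, Scd2, Rhobtb3, Fut9 and C130071C03Rik. Likeness was the root mean square difference of log2 signals after each probe set was centred on its own mean, which was 0.062 for Zfp664, 0.132 for Scd2, 0.153 for Rhobtb3, 0.155 for Fut9 and 0.178 for C130071C03Rik. Scd2, a fatty acid desaturase, had signals of 5249 and 5058 in Tg-18mo-ACEI, 824 and 932 in Tg-18mo, and 3602 and 3656 in Tg-12mo. Fut9, a fucosyltransferase, had 818 and 901 in Tg-18mo-ACEI, 119 and 145 in Tg-18mo, and 571 and 472 in Tg-12mo. The 5 were chosen for this pattern, and Zfp664 and C130071C03Rik passed the filter only through Tg-18mo-ACEI.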

How the data were processed

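Hippocampal RNA was measured on 6 chips, 2 per group. The intensity values are linear signals that the authors made with GCOS and deposited, scaled to a target value of 600. RMA values and detection calls were not used here. Of 45101 probe sets, 64 controls were left out and 23262 whose mean reached 100 in any group were tested. Gene symbols came from the platform annotation. Log2 signals of all chips were fitted with 3 group means with limma 3.58.1 under R 4.3.3 (trended eBayes, 3 residual and 5.37 prior degrees of freedom), and the Benjamini-Hochberg adjustment ran over the whole table. The fit was tested on simulated data. The members and gene lists were chosen with earlier results of these data known. All member probe sets are reported, with chip values for the leading one of each gene and for each that passed, and up to 4 genes of a list with the largest differences. Ank3, Drd1 and further markers were named beside them, after their values were seen. Alternatives were an offset of 32, no filter, a filter at an overall mean of 200, quantile normalization, division by the chip median, a fit of 2 groups at a time, a replicate block, no trend, each chip left out in turn, the study's thresholds (p of 0.01 or less and 2-fold), and the methods' t-test. Promoter windows came from RefSeq (GRCm38.p6). Figures were drawn with matplotlib 3.10.9 and pandas 2.3.3 in Python 3.11.15.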

Additional observations from a re-analysis of the deposited data

How the results depend on the processing

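With 2 chips a group the number of chips limits the precision. For single probe sets, 266 values kept their direction and side of the threshold when a chip was left out, 31 no longer passed, 4 newly passed and 5 changed sign. Under the other alternatives these counts were 400, 47, 3 and 6. In all 14 alternative limma fits, 6 of 10 higher calls and 0 of 1 lower calls remained in Tg-18mo-ACEI against Tg-18mo, 3 of 6 and 4 of 7 in Tg-18mo against Tg-12mo, and 8 of 9 and 1 of 1 in Tg-18mo-ACEI against Tg-12mo. The 3 Scn1a probe sets were among them wherever they had passed.

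The methods' t-test, adjusted over all probe sets, left 0 higher and 0 lower members in Tg-18mo-ACEI against Tg-18mo, 0 and 2 in Tg-18mo against Tg-12mo, and 0 and 0 in Tg-18mo-ACEI against Tg-12mo. Over all 23262 probe sets it left 44 and 27, 564 and 495, and 9 and 13. Its unadjusted p was under 0.05 for 9, 10 and 6 of the 17 members, beside 7469, 8594 and 7596 of all 23262 probe sets. At the study's thresholds limma gave 3 and 0, 0 and 3, and 1 and 0 in these comparisons, beside 3.03% and 1.06%, 2.57% and 1.78%, and 2.05% and 1.24% over all probe sets, and the methods' t-test gave 2 and 0, 0 and 2, and 1 and 0. With a chip left out, higher and lower calls ranged from 7 to 9 and 0 to 1 in Tg-18mo-ACEI against Tg-18mo, from 3 (without Tg-18mo replicate 1) to 6 and from 5 to 7 in Tg-18mo against Tg-12mo, and from 8 to 10 and 1 to 1 in Tg-18mo-ACEI against Tg-12mo.

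All values that changed sign had not passed as reported, and of them Scn3b 1435767_at alone passed with its new sign. In Tg-18mo-ACEI against Tg-18mo these were Scn8a 1423515_at (0.0024 after quantile normalization, 0.013 after median scaling) and 1451894_a_at (-0.027 to 0.16 with a chip left out). In Tg-18mo against Tg-12mo they were Scn2a 1435933_at (0.12 after quantile normalization, -0.053 to 0.0064 with a chip left out), Scn3a 1439204_at (-0.31 to 0.012) and Scn3b 1435767_at (0.088 after quantile normalization). In Tg-18mo-ACEI against Tg-12mo they were Scn3b 1435767_at (0.20 after quantile normalization) and Scn1a 1450121_at (0.0097 after median scaling, -0.028 to 0.014 with a chip left out). The cause was not tested. Deviations of same-numbered chips correlated at -0.03, -0.05 and 0.03 in the 3 pairs of groups, so the replicate numbers do not pair the chips. The replicate block gave 9 higher and 1 lower members in Tg-18mo-ACEI against Tg-18mo, 6 and 7 in Tg-18mo against Tg-12mo, and 9 and 1 in Tg-18mo-ACEI against Tg-12mo, and Scn2a 1435933_at then had an adjusted p of 0.055.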
